A study of Mus musculus with 24 samples.

Results

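The chromatin held by LAP2alpha was set beside the chromatin held by lamin A/C in wild-type mouse dermal fibroblasts sheared by 12 cycles of sonication. The genome was sorted by the called regions of 3 libraries: LAP2alpha, lamin A/C precipitated with antibody N18, and lamin A/C precipitated with antibody 3A6. The libraries were chosen by their labels, and they are 3 of the 12 ChIP-seq libraries whose region lists were analysed, in a series of 24 samples with 1 per group. They hold 777 of the 3486 broad domains called with EDD and 26871 of the 87065 shorter islands called with SICER. The cells of these 3 libraries were immortalized murine dermal fibroblasts with both wild-type Lap2alpha alleles (Lap2alpha +/+), and 4 of the 9 other libraries came from Lap2alpha -/- fibroblasts (KO). LAP2alpha was precipitated with hybridoma supernatant 8C10-1H11, N18 was raised against the N terminus of lamin A/C, and 3A6 (clone 3A6-4C11) recognises its C-terminal Ig fold. With 1 library per group there was no spread between replicates, so every difference given here is a description and no p-value was computed. The LAP2alpha library ran on another flow cell than the lamin A/C libraries, which shared a flow cell and a lane, so protein and flow cell cannot be told apart. All 3 were called against the same wild-type 12-cycle input, and the part of that input in what they share was not tested. Region lists hold no expression, so the fibroblast label could not be checked against marker genes.

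Lamins are intermediate filament proteins that line the inner nuclear membrane and hold chromatin there as lamina-associated domains. A-type lamins (lamin A/C, from Lmna) also have a mobile pool in the nuclear interior, and LAP2alpha, a product of Tmpo without a membrane anchor, binds that pool and the retinoblastoma protein. EDD joins enriched bins into domains of up to many Mb, while SICER joins enriched windows into islands that are mostly far shorter.

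To show the kind of promoter sequence in each class, 5 gene starts are printed, of which 3 lie in the longest or next longest EDD stretch of a class and 2 in a class's densest SICER island at a gene start. Each window holds the 250 bases before an annotated transcription start (mm9), 5′ to 3′ on the gene's own strand, outside annotated exons, with the dinucleotide CG in capitals. CG is its own reverse complement, its matches do not overlap each other, and it occurred in 92.5% of the 22203 windows of this length, with a median of 8 per window. A match is a description of the letters and not a methylation state.
Zfp385c (LAP2alpha alone, EDD), chr11:100553770-100554019, minus strand: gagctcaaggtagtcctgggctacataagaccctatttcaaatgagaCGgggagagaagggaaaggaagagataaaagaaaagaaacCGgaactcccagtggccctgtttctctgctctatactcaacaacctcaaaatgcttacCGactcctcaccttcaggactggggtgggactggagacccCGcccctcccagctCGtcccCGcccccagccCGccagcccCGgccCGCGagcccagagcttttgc
Sun1 (all 3, EDD), chr5:139676341-139676590, plus strand: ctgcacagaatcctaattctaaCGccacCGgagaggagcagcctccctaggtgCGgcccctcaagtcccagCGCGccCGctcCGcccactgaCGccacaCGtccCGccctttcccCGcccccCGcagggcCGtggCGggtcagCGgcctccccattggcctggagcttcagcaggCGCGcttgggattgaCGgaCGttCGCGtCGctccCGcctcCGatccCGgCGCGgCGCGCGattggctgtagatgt
Zfp326 (lamin A/C without LAP2alpha, EDD), chr5:106305334-106305583, plus strand: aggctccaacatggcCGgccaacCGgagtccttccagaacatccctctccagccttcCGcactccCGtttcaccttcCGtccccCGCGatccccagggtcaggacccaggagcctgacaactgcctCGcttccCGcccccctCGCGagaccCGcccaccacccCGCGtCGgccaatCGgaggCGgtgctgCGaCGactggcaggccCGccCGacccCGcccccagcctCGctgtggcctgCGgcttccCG
Gm10106 (all 3, SICER), chr9:3031835-3032084, plus strand: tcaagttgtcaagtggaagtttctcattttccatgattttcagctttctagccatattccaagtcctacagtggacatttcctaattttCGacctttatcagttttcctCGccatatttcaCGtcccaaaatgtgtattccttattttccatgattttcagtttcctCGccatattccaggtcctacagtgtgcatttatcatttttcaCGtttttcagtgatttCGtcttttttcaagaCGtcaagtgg
Coil (lamin A/C without LAP2alpha, SICER), chr11:88831316-88831565, plus strand: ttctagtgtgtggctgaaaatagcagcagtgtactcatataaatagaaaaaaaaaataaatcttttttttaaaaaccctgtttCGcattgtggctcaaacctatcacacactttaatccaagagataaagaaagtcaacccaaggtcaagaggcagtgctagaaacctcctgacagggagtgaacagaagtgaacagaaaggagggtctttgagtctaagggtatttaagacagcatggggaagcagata
The windows of Sun1 and Zfp326 held 30 and 25 CG, against 10 for Zfp385c, 7 for Gm10106 and 1 for Coil.

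Most LAP2alpha domain sequence was also lamin A/C domain sequence, and the rest was the more gene-dense of the unshared classes. LAP2alpha held 254 EDD domains over 507 Mb, N18 held 238 over 404 Mb and 3A6 held 285 over 399 Mb. All 3 libraries together held 293 Mb, which was 57.8% of the LAP2alpha bp. LAP2alpha without either lamin A/C antibody held 98.8 Mb (19.5% of the LAP2alpha bp), and lamin A/C without LAP2alpha held 85.5 Mb (17.3% of the 493 Mb of both antibodies). The remaining LAP2alpha sequence was shared with a lone antibody, 70.4 Mb with N18 and 44.5 Mb with 3A6. Each antibody on its own had 90.0% (N18) and 84.6% (3A6) of its bp inside LAP2alpha domains. Of the N18 bp 76.5% lay in 3A6 domains, and of the 3A6 bp 77.5% lay in N18 domains, so either lamin A/C library shared a larger share of itself with LAP2alpha than with the other lamin A/C antibody. LAP2alpha domains covered more of the genome than those of either antibody (19.2% against 15.3% and 15.1%).

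The sizes of the unshared classes moved with the amount of sequence called. When N18 was taken as the only lamin A/C library, 28.3% of the LAP2alpha bp was LAP2alpha alone and 10.0% of the N18 bp lacked LAP2alpha, and with 3A6 as the only one 33.4% was LAP2alpha alone. When the lowest-scoring domains were dropped until each library held no more bp than the smallest, which left 106 of the 254 LAP2alpha domains, LAP2alpha alone fell to 13.7% and lamin A/C without LAP2alpha rose to 30.0%, so the order of both shares turned.

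**Figure D1:**
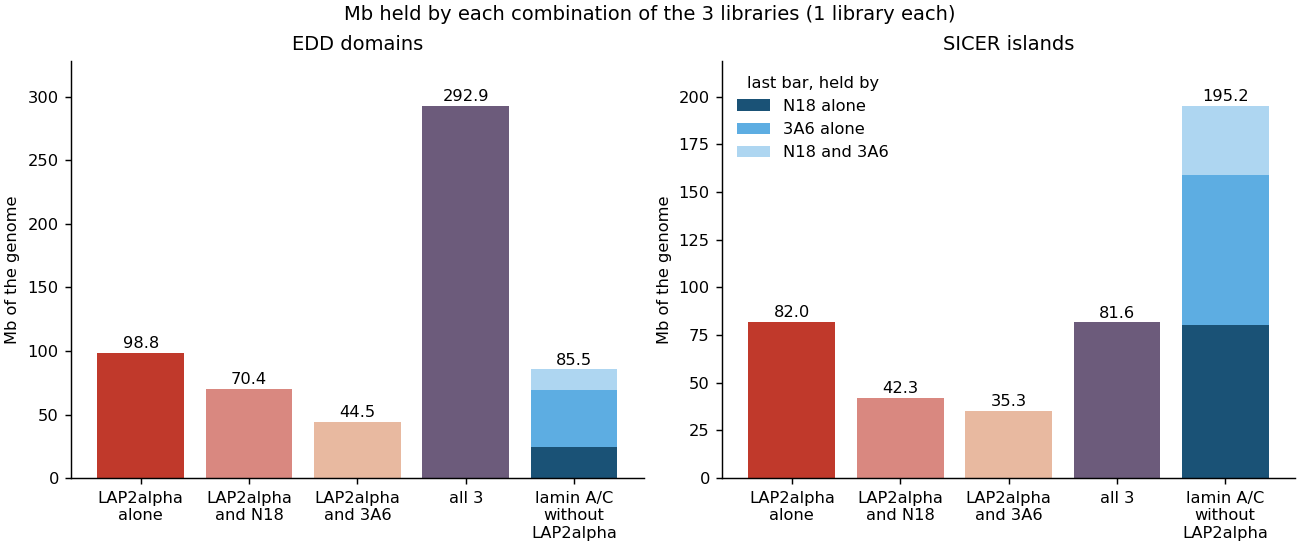
Bars give the Mb of the genome held by each combination of the 3 libraries (1 library each), with EDD domains on the left and SICER islands on the right, and the last bar is divided by antibody. EDD sequence was mostly held by all 3 (293 Mb), whereas in SICER islands the lamin A/C sequence without LAP2alpha (195 Mb) exceeded the sequence held by all 3 (81.6 Mb).

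Stretches of the shared class were long and those of both unshared classes were short. Stretches are the pieces left when domains are cut by class, so short unshared ones arise wherever domain ends differ. The 193 stretches held by all 3 had a median length of 792 kb and a mean of 1518 kb, 68 of them reached 1 Mb and 1 was under 100 kb. The 249 LAP2alpha-alone stretches had a median of 286 kb and a longest of 2.68 Mb, and 85 of them were under 100 kb. The 251 lamin A/C stretches without LAP2alpha had a median of 231 kb and a longest of 1.91 Mb, with 91 under 100 kb. In the plot of stretch lengths the unshared classes overlap each other up to 1.91 Mb, and the shared class reaches 31.6 Mb. Among whole LAP2alpha domains, those without lamin A/C bp had a median of 522.5 kb and a shortest of 187 kb. Those covered in full by lamin A/C had a median of 1034 kb.

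Much of the unshared sequence lay at the flanks of shared domains. Of the 249 LAP2alpha-alone stretches, 159 abutted a shared domain at 1 end (39.0 Mb, median 99 kb), 38 filled a gap between shared domains at both ends (29.0 Mb, median 539 kb) and 52 stood apart as whole LAP2alpha domains (30.8 Mb, median 522.5 kb). Those 52 domains, with no lamin A/C bp at all, had EDD scores from 5.12 to 15.5, and the 68 LAP2alpha domains covered in full by lamin A/C had scores from 5.19 to 168. Per Mb of domain the median scores were close, 12.7 and 12.5. Gene density did not separate the positions, with 19.4 genes per Mb in the isolated stretches, 17.5 in those with a neighbour at 1 end and 20.3 in those between shared domains. Of the lamin A/C stretches without LAP2alpha, 81 of 251 touched no LAP2alpha domain (44.2 Mb), 163 touched one at 1 end (33.9 Mb, median 77 kb) and 7 at both (7.48 Mb). Isolated stretches made up 51.6% of the bp of that class and 31.2% of the bp of LAP2alpha alone. Of the LAP2alpha-alone bp 55.1% lay within 500 kb of a lamin A/C domain, and of the lamin A/C bp without LAP2alpha 41.4% lay within 500 kb of a LAP2alpha domain.

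LAP2alpha-alone domains were gene-rich, and the lamin A/C sequence without LAP2alpha fell into a gene-rich N18 fraction and a gene-poor 3A6 fraction. A protein-coding gene was counted in a class when at least 50% of its length lay inside it. Of 22208 genes, 1868 (8.41%) lay in LAP2alpha alone, or 18.9 per Mb, against 8.42 per Mb over the genome. All 3 held 3874 genes (17.4% of all genes, 13.2 per Mb), LAP2alpha and N18 held 1765 (7.95%, 25.1 per Mb), LAP2alpha and 3A6 held 457 (2.06%, 10.3 per Mb) and lamin A/C without LAP2alpha held 709 (3.19%, 8.29 per Mb). With libraries trimmed to equal bp the gene counts of the unshared classes changed order, to 1107 in LAP2alpha alone and 1453 in lamin A/C without LAP2alpha. Their shares of bp changed order as well (13.7% and 30.0%), and the gene density of the trimmed classes was not computed. Split by antibody, the last class had 14.8 genes per Mb in the 24.3 Mb of N18 alone, 5.88 in the 45.1 Mb of 3A6 alone and 5.02 in the 16.1 Mb of N18 and 3A6 together. Sequence outside all 3 libraries held 6.60 genes per Mb. Among the LAP2alpha classes the one without lamin A/C was therefore denser in genes than the one held by all 3, and sharing with N18 or with 3A6 went with the highest and the lowest density.

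G+C content ran in a similar order. It was 47.5% in LAP2alpha and N18, 47.0% in all 3, 45.7% in LAP2alpha alone, 45.0% in N18 alone, 44.0% in LAP2alpha and 3A6 and 42.4% in 3A6 alone, against 40.5% outside. Promoters followed it. CG-rich windows (G+C of at least 50% and a ratio of observed to expected CG of at least 0.6) made up 43.3% of the 1867 gene starts in LAP2alpha alone, 43.5% of the 3848 in all 3, 34.5% of the 721 in lamin A/C without LAP2alpha and 38.1% of all starts. The share was 46.1% in LAP2alpha and N18, 43.0% in N18 alone, 34.1% in LAP2alpha and 3A6, 28.0% in N18 and 3A6 and 24.7% in 3A6 alone. Outside all 3 libraries it was 35.1%, so the sequence lowest in G+C did not have the lowest share. LAP2alpha alone and all 3 thus had nearly the same share of CG-rich promoters, while the 3A6 fraction lay below both.

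**Figure D2:**
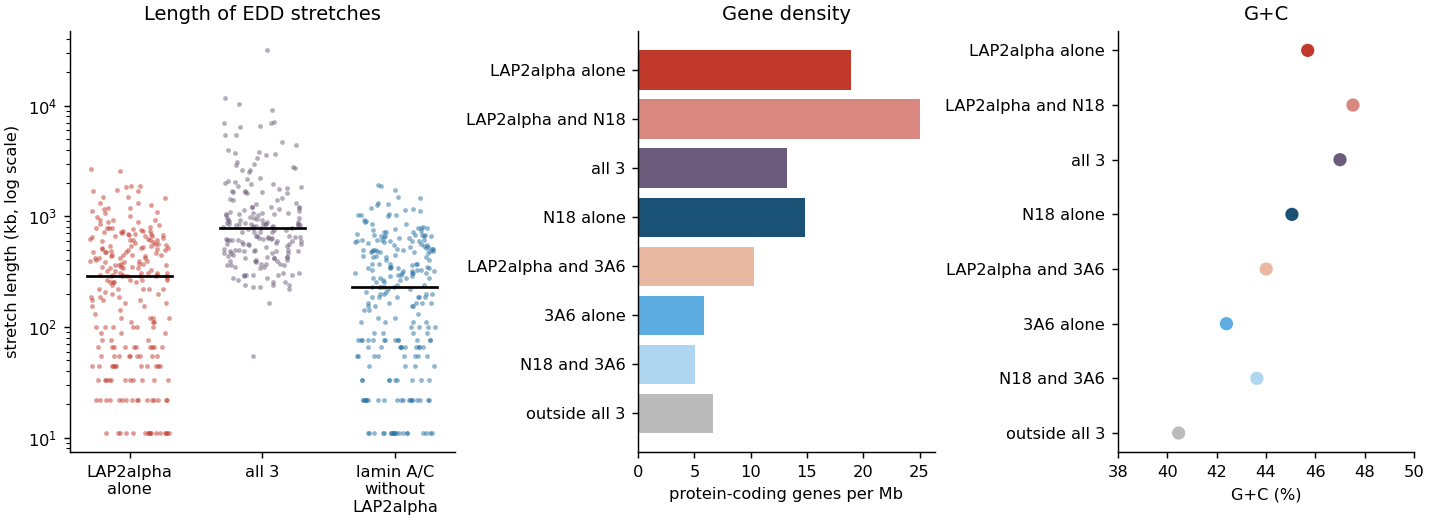
Left, length of every EDD stretch in the 3 main classes in kb on a log scale, with black lines at the medians (286, 792 and 231 kb). Middle and right, protein-coding genes per Mb (bars) and G+C content in percent (points) of each EDD class. N18 alone lies near LAP2alpha alone in G+C (45.0% and 45.7%) and between LAP2alpha alone and all 3 in gene density. 3A6 alone and N18 and 3A6 lie lowest in gene density among the classes.

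The longest LAP2alpha-alone stretches lay on chromosomes 11, 10 and 7. The longest, chr11:100320001-103004000 (2.68 Mb, 99 genes, G+C 47.9%), held Ezh1, a histone H3 lysine methyltransferase of the Polycomb system, Fzd2, a Wnt receptor, Kcnh4, a potassium channel gene, and Zfp385c, a zinc finger gene whose promoter is printed above. It began where a stretch of LAP2alpha and N18 with type I keratin genes ended. Its LAP2alpha islands covered 18.9% of it, and N18 and 3A6 islands covered 14.3% and 12.3%, so lamin A/C islands were present where no lamin A/C domain was called. In chr11:68255001-70840000 (2.58 Mb, 120 genes) lay Kdm6b, a demethylase of lysine 27 of histone H3, the zinc finger gene Zfp3, the potassium channel subunit gene Kcnab3 and the ribosomal protein gene Rpl26. Island coverage there was 16.5% for LAP2alpha, 16.9% for N18 and 8.97% for 3A6. Single genes could differ from their stretch. Over Kcnab3 N18 islands covered 92.0% and LAP2alpha islands 0%. In the longest stretch N18 islands covered 28.3% of Ezh1 and 47.3% of Kcnh4, and LAP2alpha islands 0% of both. Over Zfp385c LAP2alpha islands covered 32.4%, N18 islands 0% and 3A6 islands 33.6%. The third, chr11:4521001-6402000 (1.88 Mb, 40 genes), held Mrps24 of the mitochondrial ribosome and Uqcr10 of respiratory complex III, and islands covered 73.1%, 58.6% and 66.8% of it in the same order.

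The fourth stretch, chr10:126863001-128733000 (1.87 Mb, 86 genes), held Cdk2, the kinase partner of E-type cyclins, Atp5b of the ATP synthase, Ndufa4l2 and the ribosomal protein gene Rps26. Islands of LAP2alpha covered 15.3% of it, N18 7.86% and 3A6 6.63%. The fifth, chr7:141064001-142923000 (1.86 Mb, 10 genes), held the long genes Dock1 (503 kb), a guanine nucleotide exchange factor of cell migration, and Adam12 (349 kb), a membrane metalloprotease, and had no island of any of the 3 libraries. It ended where a shared domain began, and LAP2alpha islands covered only 0.0387% of chromosome 7. The LAP2alpha library at 30 cycles covered 100% of this stretch and 92.4% of the third, and 0% of the other 3. LAP2alpha islands exceeded those of both antibodies in 3 of the 5 stretches. Islands and domains were called from the same libraries and the stretches were picked by domain calls, so the islands are no separate measure. The recall at 30 cycles was near complete or nil.

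The 5 longest shared domains were longer, from 7.19 to 31.6 Mb. The stretch chr5:111551001-143187000 (31.6 Mb, 438 genes) held Sun1, which links the lamina to the cytoskeleton, Eln, the elastin gene, the zinc finger gene Zfp664 and Cyp3a13, a cytochrome P450. Islands covered 11.3% of it in LAP2alpha, 8.72% in N18 and 9.76% in 3A6. Next came chr2:161810001-173459000 (11.6 Mb, 152 genes) with the cadherin gene Cdh22 and the zinc finger genes Zfp64 and Zfp217, and chr8:118646001-128986000 (10.3 Mb, 132 genes) with the cadherin genes Cdh13 (1041 kb long) and Cdh15, the potassium channel gene Kcnk1 and Zfp276. The domain chr2:24772001-33990000 (9.22 Mb, 225 genes) held Col5a1 of fibrillar collagen V, Kcnt1, the glutamate receptor gene Grin1 and Mrps2. The fifth, chr13:52723001-59917000 (7.19 Mb, 90 genes), held Zfp346. Island coverage by LAP2alpha ran from 9.44% on the first chromosome 2 domain named to 86.7% on the chromosome 8 domain, and that by N18 and 3A6 ran over the same range (5.85% to 88.8% and 7.04% to 83.1%). A domain call of all 3 libraries thus went with both sparse and nearly continuous islands.

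Of the 5 longest lamin A/C stretches without LAP2alpha, all but the longest held from 1 to 17 genes. The longest, chr17:35101001-37015000 (1.91 Mb, 96 genes), was an N18 domain with Nrm, which encodes the inner nuclear membrane protein nurim, and Mrps18b, and LAP2alpha islands covered 38.6% of it, N18 islands 49.8% and 3A6 islands 27.6%. The next was chr5:105127001-106997000 (1.87 Mb, 17 genes), covered to 81.8% by N18 and 74.1% by 3A6, with the zinc finger genes Zfp326, in the N18 domain, and Zfp951, in the 3A6 domain. On chromosome 8 lay chr8:116919001-118646000 (1.73 Mb, 3 genes) with Wwox, a tumour suppressor gene 913 kb long, and the transcription factor gene Maf, which ended where the shared domain with Cdh13 began, and chr8:114543001-116028000 (1.49 Mb, 1 gene) with Cntnap4, a gene of neuronal cell adhesion. In the latter, a 3A6 domain, lamin B1 domains covered 96.3% at 12 cycles and 94.1% at 30 cycles. The fifth, chr13:70774001-72237000 (1.46 Mb, 3 genes), was an N18 domain with Adamts16, which encodes a secreted metalloprotease, and the homeobox gene Irx1, in which lamin B1 domains covered 0% at both sonications. None of these 5 stretches was covered by LAP2alpha domains at 30 cycles (0% in each).

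Genes of the lamina itself were spread over the classes. Of 19 lamina and envelope genes, 6 lay in all 3 (31.6%, against 17.4% of all genes) and 7 outside (36.8%, against 60.9%). LAP2alpha alone held 2 (10.5%, against 8.41%) and lamin A/C without LAP2alpha held 2 (10.5%, against 3.19%). LAP2alpha and N18 held 2 (10.5%, against 7.95%). The shared ones were Lmnb2 (lamin B2), the LEM domain protein genes Lemd1, Lemd2 and Ankle1, Icmt, which methylates the lamin C terminus, and Tmem43. Tor1aip1, which encodes the lamina-associated protein LAP1, and its neighbour Tor1aip2 lay in the same LAP2alpha-alone stretch, without an island of any of the 3 libraries. That stretch is on chromosome 1, of which LAP2alpha islands covered only 0.149%. Banf1, which encodes the DNA-bridging protein BAF, and Nrm lay in N18 domains without LAP2alpha, although LAP2alpha islands covered 100% of both genes. Lmna and Tmpo, named because they encode the precipitated proteins, lay outside all 3 libraries with both callers. Of the 7 genes of the LINC complex, which spans the nuclear envelope, Sun1 and Sun5 lay in all 3, Spag4 in LAP2alpha alone, Sun3 in a 3A6 domain without LAP2alpha, Sun2 in LAP2alpha and N18, and Syne1 and Syne2 outside, a list too short to set against the shares of all genes. Over Sun1 LAP2alpha islands covered 60.6% and lamin A/C islands 0%, while over Sun3 islands covered 100% (LAP2alpha), 84.8% (N18) and 75.7% (3A6). Of the genes named here inside a domain class, only Lemd2, Ankle1, Tmem43 and Spag4 had the same class with both callers. Sun1, Sun2, Sun3, Banf1 and Nrm had another island class, and Lmnb2 was split among island classes. Lemd1, Icmt, Sun5, Tor1aip1 and Tor1aip2 had no island of any of the 3 libraries.

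The retinoblastoma protein, which LAP2alpha is known to bind, restrains E2F factors and the cell cycle. Of 28 RB and E2F genes, 3 (10.7%, against 8.41% of all genes) lay in LAP2alpha alone, 2 (7.14%, against 17.4%) in all 3, 6 (21.4%, against 7.95%) in LAP2alpha and N18, 0 (against 3.19%) in lamin A/C without LAP2alpha and 17 (60.7%, against 60.9%) outside. In LAP2alpha alone were Rbl1, which encodes the RB relative p107, Ccne1, which encodes cyclin E1, and Cdk2. In all 3 were Ccnd2, a D-type cyclin gene, and Cdkn1c, which encodes a cyclin-dependent kinase inhibitor. LAP2alpha domains at 30 cycles covered 100% of Ccne1, Ccnd2 and Cdkn1c and 0% of Rbl1 and Cdk2. LAP2alpha islands covered 42.3% of Cdk2 and 0% of the other 4. N18 and 3A6 islands covered 52.3% and 67.3% of Ccnd2, and N18 islands 7.46% of Rbl1. Ccne1 and Cdkn1c lie on chromosome 7, of which LAP2alpha islands covered only 0.0387%. Of 33 genes of collagen, matrix and fibroblast identity, 5 lay in all 3 (15.2%), 3 in LAP2alpha alone (9.09%), 1 in lamin A/C without LAP2alpha (3.03%), 2 in LAP2alpha and N18 (6.06%) and 22 outside (66.7%), shares near those of all genes. The basement membrane collagen genes Col4a1 and Col4a2 were in all 3 and had islands over 94.8% and 97.1% of their length with LAP2alpha, 86.9% and 96.3% with N18 and 100% with 3A6. Col5a1, Col6a3 and Eln were also in all 3. Col6a1 and Col6a2, which encode chains of the same collagen VI trimer as Col6a3, and Col5a3 lay in LAP2alpha alone with no LAP2alpha island. However, 3A6 islands covered 32.3% of Col6a2 and N18 islands 21.1% of Col5a3, while Col6a1 had no island of any library. Pdgfra, the PDGF receptor gene that marks fibroblasts, lay in lamin A/C domains without LAP2alpha (100% in 3A6, 76.7% in N18). By islands the order differed, with 43.6% of Pdgfra covered by LAP2alpha, 26.6% by N18 and 0% by 3A6.

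Mitochondrial, proteasome and zinc finger genes lay in LAP2alpha alone in larger shares than all genes did. Of 76 mitochondrial ribosome genes 13 (17.1%) lay in LAP2alpha alone, in 12 separate stretches, against 8.41% of all genes. Respiratory chain and ATP synthase genes gave 12 of 87 (13.8%) in 11 stretches, and proteasome genes gave 6 of 39 (15.4%) in 6 stretches. Zinc finger genes named Zfp gave 56 of 361 (15.5%), but in 22 stretches, 14 of them in chr7:30382001-31009000. In lamin A/C without LAP2alpha the same lists gave 5.26%, 1.15%, 2.56% and 4.99%, on both sides of the 3.19% of all genes. All 3 held 25.0%, 25.3%, 7.69% and 12.7% of them, against 17.4% of all genes. LAP2alpha and N18 held 10.5%, 10.3%, 15.4% and 6.65%, against 7.95% of all genes, so the proteasome share was the same there as in LAP2alpha alone.

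Keratin, potassium channel, Wnt and cadherin genes lay in all 3 in larger shares than the 17.4% of all genes. Keratin genes gave 19 of 46 (41.3%) in all 3, all 19 in the type II cluster at chr15:100595001-101816000. Another 15 (32.6%, against 7.95% of all genes) lay in LAP2alpha and N18, 13 of them in chr11:99858001-100320000. Potassium channel genes gave 30 of 94 (31.9%) in 18 stretches, and Wnt and frizzled genes 11 of 29 (37.9%) in 7. Cadherin genes gave 6 of 23 (26.1%) in 4. In LAP2alpha alone these lists gave 0, 10 (10.6%), 2 (6.90%) and 1 (4.35%) genes, against 8.41% of all genes. Cytochrome P450 genes, which encode drug and steroid oxidases, were the list with the largest share in lamin A/C without LAP2alpha. They gave 22 of 98 (22.4%, against 3.19%), yet in only 3 stretches, among them the Cyp2d cluster at chr15:82214001-82643000. In LAP2alpha alone lay 13 (13.3%, against 8.41%), again in 3 stretches. Beta-defensin genes gave 8 of 41 (19.5%) in lamin A/C without LAP2alpha, in a stretch of chromosome 8. Another 11 (26.8%, against 7.95%) lay in LAP2alpha and N18, in a stretch of chromosome 2. Genes of such clusters share a domain and are not independent of each other.

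Several large families lay outside all 3 libraries in larger shares than the 60.9% of all genes. All 39 Hox genes did, as did 64 of 67 clustered histone genes, 35 of 36 protocadherin genes, 300 of 319 vomeronasal receptor genes and 952 of 1087 olfactory receptor genes. Of the olfactory receptor genes inside, 51 lay in LAP2alpha and 3A6 (4.69% of the list, against 2.06% of all genes). LAP2alpha alone held 32 (2.94%, against 8.41%), all 3 held 23 (2.12%, against 17.4%) and LAP2alpha and N18 held 15 (1.38%, against 7.95%). Lamin A/C without LAP2alpha held 14 (1.29%, against 3.19%). Ribosomal protein genes gave 20 of 80 in all 3 (25.0%, against 17.4% of all genes) and 13 in LAP2alpha and N18 (16.2%, against 7.95%). They gave 5 in LAP2alpha alone (6.25%, against 8.41%). Glutamate and GABA receptor genes gave 8 of 48 in all 3 (16.7%), near the 17.4% of all genes. Keratin-associated genes gave 8 of 46 in LAP2alpha alone (17.4%, against 8.41% of all genes), in 2 stretches. Of 24 chromatin factor genes 2 lay in LAP2alpha alone (Ezh1 and Kdm6b, 8.33%, against 8.41% of all genes), 2 in all 3 (8.33%, against 17.4%) and 0 in lamin A/C without LAP2alpha (against 3.19%).

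**Figure D3:**
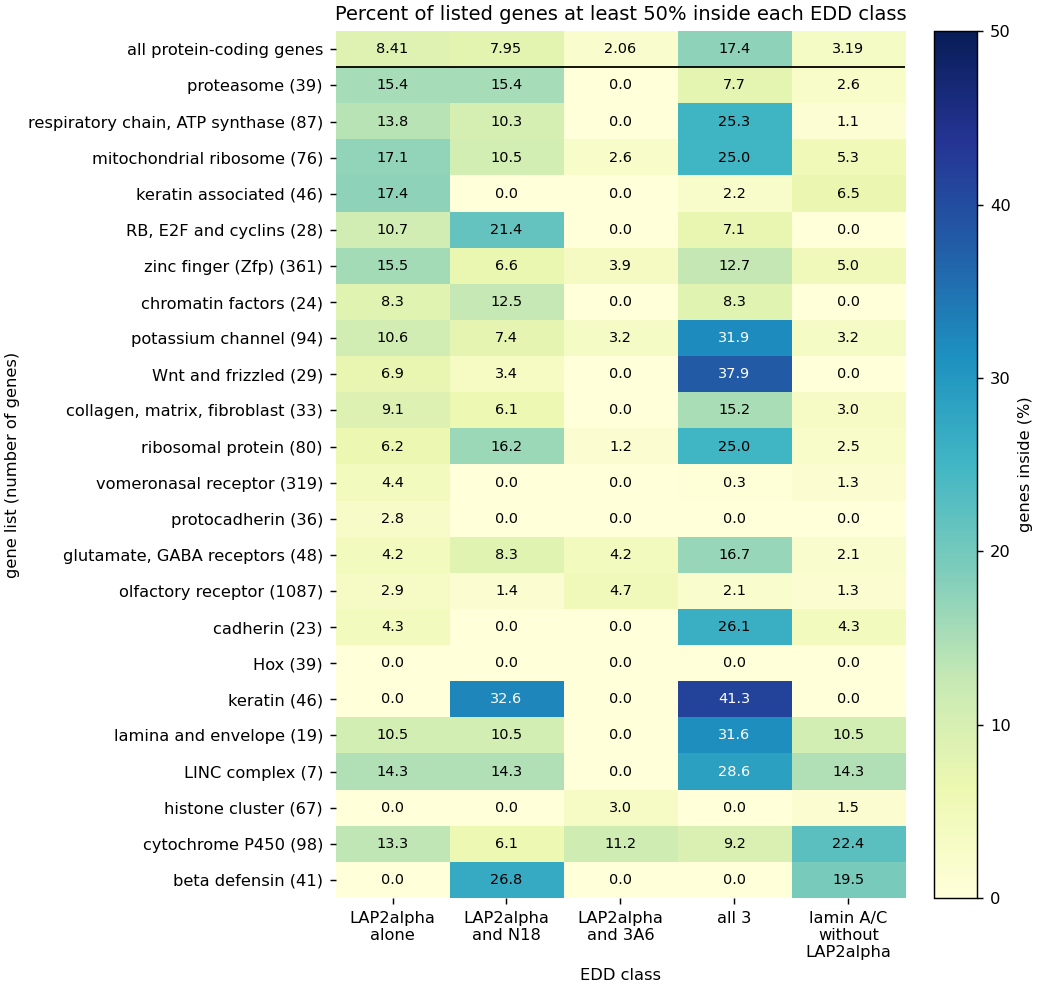
Each cell gives the percent of a list's genes that lie at least 50% inside an EDD class, lists in rows with their number of genes and classes in columns, and the top row gives the same for all 22208 protein-coding genes. Mitochondrial ribosome, respiratory chain, proteasome and zinc finger lists stand at 13.8% to 17.1% in LAP2alpha alone (all genes 8.41%), and the cytochrome P450 list stands at 22.4% in lamin A/C without LAP2alpha (all genes 3.19%).

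The 9 other libraries of the series, which were not used to build the classes, separated LAP2alpha alone from the 3A6 fraction. Lamin B1, a lamin anchored at the envelope, had domains over 16.9% of the genome at 12 cycles. They covered 3.22% of LAP2alpha alone, 1.66% of LAP2alpha and N18 and 4.48% of N18 alone. They covered 18.6% of all 3, 28.2% of LAP2alpha and 3A6, 36.3% of N18 and 3A6 and 38.9% of 3A6 alone. At 30 cycles the order was similar, with 8.02% of LAP2alpha alone, 22.8% of all 3 and 55.1% of 3A6 alone, against 36.2% of the genome. The LAP2alpha-alone class was thus poor in lamin B1 domains at both sonications, and within the lamin A/C class without LAP2alpha the N18 and the 3A6 fractions lay on opposite sides of the genome's share.

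LAP2alpha alone was recalled in part by LAP2alpha at the other sonication, as were the other LAP2alpha classes. LAP2alpha domains at 30 cycles covered 62.2% of LAP2alpha alone, 64.6% of all 3, 80.6% of LAP2alpha and 3A6 and 36.7% of LAP2alpha and N18. They covered 31.4% of lamin A/C without LAP2alpha and 24.6% of the genome. Lamin A/C at 30 cycles covered 4.40% (N18) and 4.11% (3A6) of LAP2alpha alone, less than their 9.04% and 22.1% of the genome, and 38.2% and 10.3% of all 3. When the same sorting was applied to the 30-cycle libraries, 55.9% of the LAP2alpha-alone bp stayed LAP2alpha alone and 0.902% became lamin A/C without LAP2alpha, where those 30-cycle classes made up 16.6% and 19.2% of the genome. Of the bp held by all 3 at 12 cycles, 7.84% were held by all 3 at 30 cycles, a class of 2.15% of the genome there, and 37.7% were LAP2alpha alone. Lamin A/C without LAP2alpha kept its class over 23.0% of its bp. For these 3 classes the kept shares thus exceeded the genome shares of the same classes at 30 cycles, which were of very unequal size. Each of the 3 antibodies was run on another flow cell for 30 cycles than for 12, and the part of the flow cell was not tested.

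In cells without LAP2alpha (KO) at 12 cycles, lamin A/C domains covered 20.2% (N18) and 9.47% (3A6) of the wild-type LAP2alpha-alone class, beside 16.0% and 14.5% of the genome. These KO libraries shared the flow cell and lane of the wild-type lamin A/C libraries at 12 cycles. They covered 72.1% and 46.2% of all 3, and 28.7% and 36.9% of lamin A/C without LAP2alpha. At 30 cycles the KO libraries covered 31.0% (N18) and 13.1% (3A6) of LAP2alpha alone and 84.7% and 43.0% of all 3, where they covered 17.9% and 18.9% of the genome. By N18 the KO coverage of LAP2alpha alone lay above the genome's share at both sonications, and by 3A6 it lay below it. In the 5 longest LAP2alpha-alone stretches KO lamin A/C domains at 12 cycles were absent but for 4.14% of the Dock1 and Adam12 stretch with N18. At 30 cycles N18 domains of KO cells covered 18.4% of the stretch with Ezh1, 20.5% of that with Uqcr10, 17.1% of that with Cdk2 and 0% of that with Kdm6b. In the Cntnap4 stretch, where wild-type N18 had no domain at 12 cycles, N18 covered 96.3% in wild-type cells at 30 cycles, 100% in KO cells at 12 cycles and 54.8% in KO cells at 30 cycles. The absence of N18 there was thus limited to the library used for the classes.

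**Figure D4:**
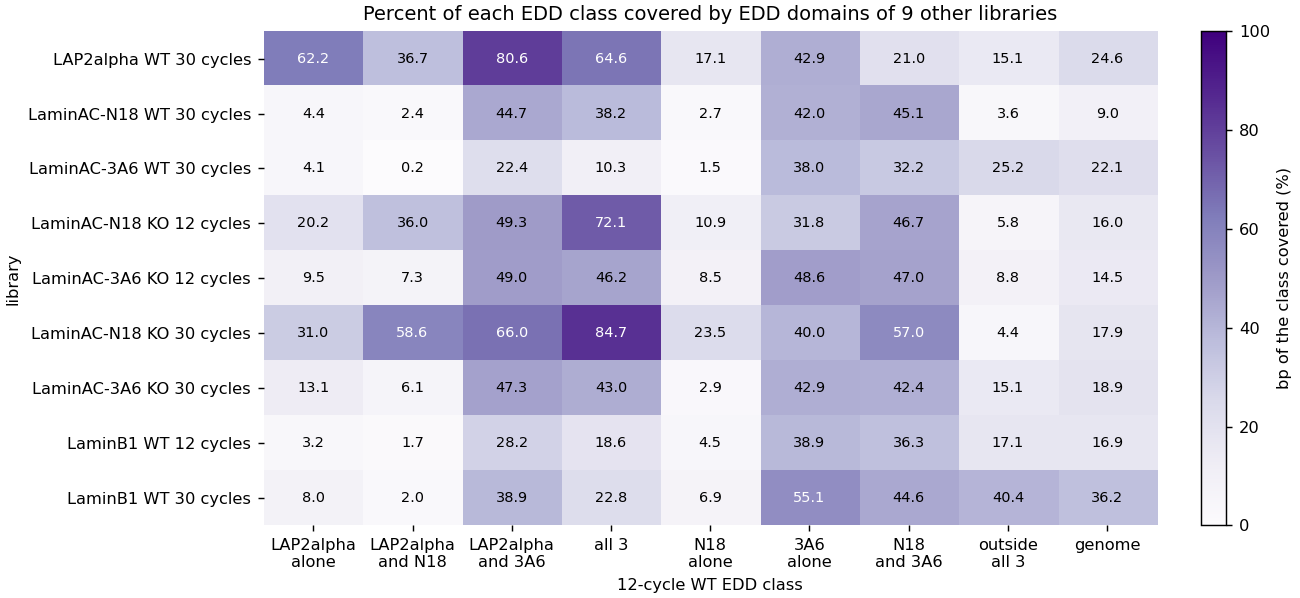
Cells give the percent of the bp of each 12-cycle wild-type EDD class (columns) covered by EDD domains of the 9 other libraries (rows), with the whole genome in the last column. Lamin B1 at 12 cycles covers 3.22% of LAP2alpha alone and 38.9% of 3A6 alone, and LAP2alpha at 30 cycles covers 62.2% of LAP2alpha alone.

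The SICER islands gave another balance of the classes. LAP2alpha had 8950 islands over 241 Mb with 5097817 reads in them, N18 had 8762 over 241 Mb with 5091621 reads and 3A6 had 9159 over 232 Mb with 4884992 reads, so the 3 libraries were alike in depth inside islands. LAP2alpha alone held 82.0 Mb (34.0% of the LAP2alpha island bp), all 3 held 81.6 Mb (33.8%) and lamin A/C without LAP2alpha held 195 Mb (55.1% of the lamin A/C island bp). LAP2alpha islands shared 51.3% of their bp with N18 and 48.5% with 3A6, and N18 islands shared 49.0% of theirs with 3A6, so the 3 pairs overlapped to about the same degree. Of the LAP2alpha islands 33.9% (3031) touched no lamin A/C island. These were shorter than the 5919 that did (median 14 against 21 kb) and had nearly the same read density (median 19.6 against 20.6 reads per kb). When islands were counted as shared at 50% of their length or more, 45.1% of LAP2alpha islands were alone and 23.6% were shared with both antibodies.

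Islands held by LAP2alpha alone, called from the same libraries as the domains, lay inside domains in larger shares than the genome did. Of their bp 60.9% fell outside the EDD domains of all 3 libraries, 18.2% in domains of all 3 and 8.62% in LAP2alpha-alone domains, where these held 77.6%, 11.1% and 3.74% of the genome. Island bp held by all 3 fell to 40.4% in domains of all 3 and to 30.9% outside. Within the domains, LAP2alpha islands covered 17.7% of LAP2alpha alone, 22.3% of all 3, 18.6% of lamin A/C without LAP2alpha and 5.63% of the sequence outside. The order of the unshared classes turned when chromosomes 1, 4, 7 and 12, on which islands were nearly absent, were left out: LAP2alpha islands then covered 29.9% of LAP2alpha alone, 33.5% of all 3 and 24.3% of lamin A/C without LAP2alpha. These chromosomes hold a larger part of LAP2alpha alone, of which 58.0% remained, against 76.7% of lamin A/C without LAP2alpha. Over all chromosomes N18 islands covered 12.7% and 3A6 islands 11.4% of LAP2alpha-alone domains, above the 6.09% and 5.63% they covered outside.

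Genes inside islands were fewer. LAP2alpha-alone islands held 984 genes (4.43% of all genes), islands of all 3 held 1387 (6.25%) and lamin A/C islands without LAP2alpha held 1725 (7.77%). Hox genes, which lay in no domain, gave 9 of 39 (23.1%) in LAP2alpha-alone islands, all 9 on 2 chromosomes and thus not independent of each other. Ribosomal protein genes gave 10 of 80 (12.5%) there, on 6 chromosomes. Keratin genes gave 16 of 46 (34.8%) in islands of all 3. Mitochondrial ribosome genes gave 13 of 76 (17.1%) and beta-defensin genes 10 of 41 (24.4%) in lamin A/C islands without LAP2alpha. The keratin list was thus above the share of all genes in the shared class with both callers, which read the same libraries. With either caller its genes in that class lay on 1 chromosome and are not independent of each other. Proteasome and zinc finger genes had larger shares than all genes in LAP2alpha-alone domains. In LAP2alpha-alone islands they gave 1 of 39 (2.56%) and 14 of 361 (3.88%), below the 4.43% of all genes. Mitochondrial ribosome and respiratory genes gave 9.21% and 5.75% there. Of the 56 zinc finger genes in LAP2alpha-alone domains, 14 lay in 1 stretch of chromosome 7, where islands were nearly absent.

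Chromosomes differed widely in both measures. LAP2alpha-alone domains made up 12.5% of chromosome 7 (19.1 Mb, 19.4% of the class) and 10.9% of chromosome 11 (13.3 Mb), and 7.66% of chromosome 12 and 6.46% of chromosome 9. Lamin A/C without LAP2alpha exceeded LAP2alpha alone most on chromosome 13 (9.93 Mb, 8.26%, against 0.869 Mb). Chromosome 8 (8.83 Mb, against 0.891 Mb) and chromosome 1 (10.7 Mb, against 5.83 Mb) came next. By fewer Mb it was also the larger class on chromosomes 2, 5, 6, 15, 16, 17, 19 and X. Chromosomes 3 and X held under 1 Mb of either class. The share of LAP2alpha bp held alone ran from 3.19% on chromosome 8 to 47.9% on chromosome 14. Chromosome 7 thus held the most LAP2alpha-alone sequence and few lamin A/C bp without it, while chromosome 13 had the largest share of its length in lamin A/C without LAP2alpha and little LAP2alpha alone.

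Islands were nearly absent from chromosomes 1, 4, 7 and 12, where LAP2alpha islands covered 0.00660% to 0.968% of the sequence, although LAP2alpha domains covered 34.1%, 15.1%, 37.0% and 22.8% of these chromosomes. On chromosomes 6, 8, 15, 17 and 19 LAP2alpha islands covered 21.2% to 33.3%. These 5 chromosomes make up 20.5% of the genome and held 87.5% of the island bp of all 3 and 32.1% of the island bp of LAP2alpha alone. There 33.7% to 59.4% of the LAP2alpha island bp was held by all 3. On the other 11 chromosomes, with coverage of 1.56% to 13.4%, it was 0% to 19.2%, and 38.7% to 92.7% was LAP2alpha alone. On chromosomes 1, 4, 7 and 12, with 0.235 Mb of island sequence of all 3 between them, it ran from 1.92% to 87.5%. Among the 16 chromosomes with coverage of 1% or more, the 5 with the most islands thus had the largest shares in common, and the reason for the uneven coverage was not tested. Leaving out chromosomes 1, 4, 7 and 12 gave 33.7% alone and 34.0% in all 3 for islands, and 17.3% and 58.3% for domains.

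**Figure D5:**
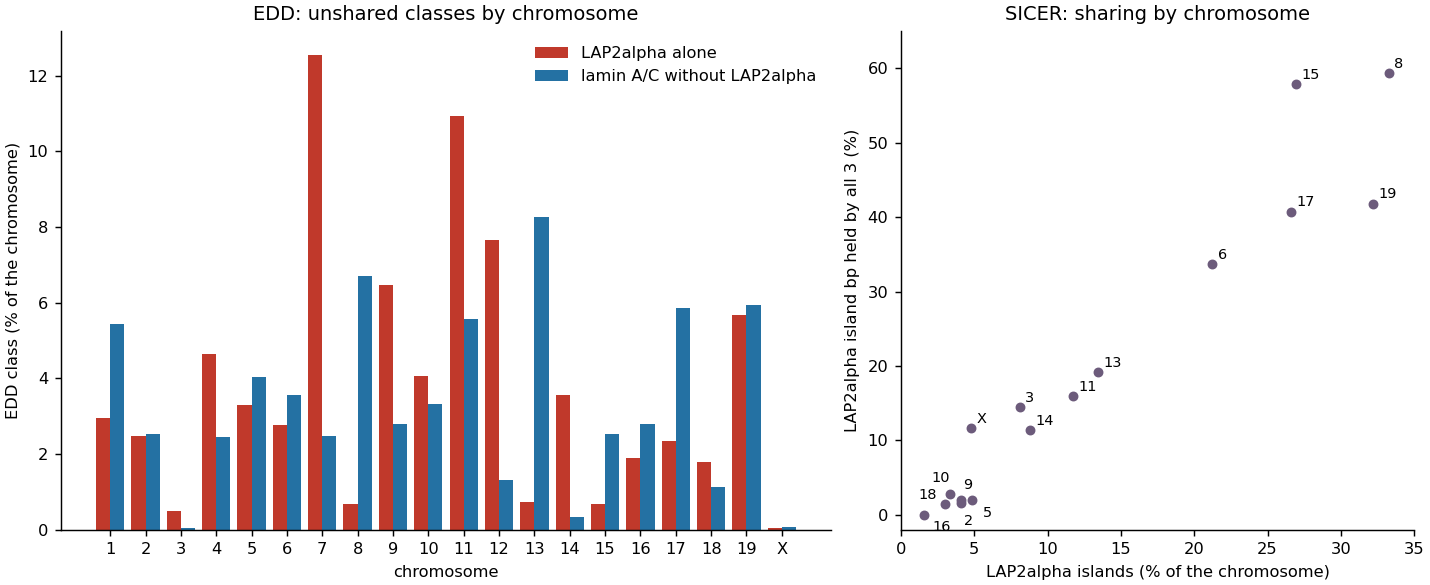
Left, percent of each chromosome held by LAP2alpha-alone domains and by lamin A/C domains without LAP2alpha, where chromosomes 7 and 11 lead the former (12.5% and 10.9%) and chromosome 13 the latter (8.26%). Right, percent of the LAP2alpha island bp held by all 3 against the percent of the chromosome covered by LAP2alpha islands, for the 16 chromosomes with coverage of 1% or more, where chromosomes 6, 8, 15, 17 and 19 stand highest on both axes.

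For LAP2alpha alone and for all 3, the densest islands at a gene start lay at the ends of assembled chromosomes. The LAP2alpha island at chr11:3000001-3171000 starts at the first called base of chromosome 11 and held 34836 reads, or 204 reads per kb. N18 had an island of 33083 reads and 3A6 an island of 32093 reads inside the same interval, over 115 and 73 kb, so the pile of reads was common to the 3 libraries and its length was not. The start of the predicted gene Gm10106 lay in an island of all 3 with the same ends in each, chr9:3012001-3039000, and with 80.6, 74.9 and 79.0 reads per kb in LAP2alpha, N18 and 3A6. That sequence repeated itself at a shift of 234 bases with 72.5% identical bases, which is the unit length known for the major satellite of mouse centromeres, whereas the best shift of the other 2 islands gave 28.0% and 28.5%. Reads on repeats may map to more than 1 place, so the origin of these counts is uncertain. In lamin A/C without LAP2alpha the densest island at a gene start was an N18 island over Coil, the gene of the Cajal body protein coilin, at chr11:88828001-88849000 with 658 reads (31.3 per kb), and no 3A6 or LAP2alpha island touched it.

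Along the chromosomes the island numbers of the 3 libraries rose and fell together. Across 2649 bins of 1 Mb, islands per bin gave a Pearson correlation of 0.895 for LAP2alpha against N18, 0.877 for LAP2alpha against 3A6 and 0.890 for N18 against 3A6. Bins share the libraries, the input and the uneven coverage of chromosomes, and 1191 bins held no LAP2alpha island, so the correlation is a description. In bins with an island in either library it was 0.847 with N18 and 0.822 with 3A6. The pairs with LAP2alpha thus lay close to the pair of lamin A/C antibodies on this scale.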

How the data were processed

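Regions of 3 ChIP-seq libraries were compared, and the other 9 libraries served as further readouts. According to the submitters' processing notes the authors used cutadapt for trimming, Bowtie2 2.1.0 for alignment (mm9) and Picard, which removed duplicates and reduced each library to the read number of its input, so depth was levelled before calling and unequal enrichment was not. The deposited SICER 1.1 islands hold a count of ChIP reads per island, not divided by length or input (window 1000 bp, gap 3000 bp, FDR 0.01). The deposited EDD domains hold a score given by the authors' caller (bins of 11 kb, gap penalty 5, FDR 0.1). Reads inside islands are given as depth. For the shares of called bp, a 95% exact binomial interval over the number of regions served only as a yardstick for the alternatives, since bp are not independent draws.

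All ends lay on a grid of 1000 bp (0 regions past a chromosome end), on which bp of each combination were counted in Python 3.11.15 with numpy 2.4.6, tested on simulated data. Genes were 22208 symbols from 22350 protein-coding records of GENCODE vM1, and promoter windows were read from the mm9 reference sequence. A listed gene and a promoter window that the naming rule picked are not reported here. Named were the 5 longest EDD stretches per class with up to 4 listed genes (else the 2 longest genes), members of 4 of the 23 gene lists, and the gene start in the densest island of at least 10 kb per class. The classes and lists were chosen with earlier results of these data known. Alternatives were lone antibodies, equal bp, score, length and read filters, autosomes, other gene and overlap rules and other bins. Inputs and histone libraries were not analysed here.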

Additional observations from a re-analysis of the deposited data

How the results depend on the processing

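The shares of EDD bp held alone, by all 3 and without LAP2alpha stayed within 17.3% to 22.0%, 56.9% to 58.3% and 15.9% to 19.3% with the higher-scoring domains, a minimum of 500 kb per domain or 100 kb per stretch, autosomes alone, and without chromosomes 1, 4, 7 and 12, an alternative chosen after the data were seen. With N18 as the only lamin A/C library they were 28.3%, 71.7% (shared) and 10.0%, with 3A6 as the only one 33.4% and 66.6%, and with each library trimmed to the bp of the smallest 13.7%, 66.7% and 30.0%. The trimmed domains held 1107 genes in LAP2alpha alone and 1453 in lamin A/C without LAP2alpha. Gene counts by transcription start, by whole genes, by high scores and on autosomes stayed within 1.5 times.

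The island shares, in the same order, were 31.4%, 36.0% and 52.3% with islands above the median read count, 48.7%, 51.3% and 48.5% with N18 alone, 51.5%, 48.5% and 49.5% with 3A6 alone, and without LAP2alpha 54.1% on autosomes. Counted as islands, 37.7% were held by all 3 and 57.5% lacked LAP2alpha at 1 bp of overlap, and 45.1%, 23.6% and 71.0% resulted at 50%. Correlations of bins with N18 were 0.833 at 500 kb, 0.958 at 5 Mb, 0.884 as Spearman's rho and 0.847 in bins with an island, and with 3A6 0.817, 0.942, 0.880 and 0.822. The cause of these shifts was not tested beyond the smaller or merged sets themselves. No paired analysis was possible because each group holds 1 library. Depth limits which regions could be called, not the bp counted once called.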

Other observations

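Domain ends seldom coincided. Of 508 LAP2alpha domain ends, 57 lay at the same position as an N18 end and 47 at the same position as a 3A6 end, on a grid of 11 kb bins, and of 476 N18 ends 57 matched a 3A6 end. Within 100 kb lay 197 (N18) and 186 (3A6) of the LAP2alpha ends, and the median distances were 253 kb and 308 kb, beside 176 kb from N18 to 3A6 ends.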
